A study of Caenorhabditis elegans with 24 samples.

Results

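The results below concern the hypoxia response that *Caenorhabditis elegans* showed at each of 4 exposures, one in each of 4 successive generations, estimated as 1 common effect of low oxygen. All 24 RNA-seq libraries of the series were used, 12 from worms kept in hypoxia and 12 from worms kept in normoxia, with the exposure number as a block in the model. The worms were wild-type N2, labelled as L4 larvae, and each library was made from poly(A) RNA of whole worms. In the hypoxia group, L4 worms spent 16 h at 0.1% oxygen, and in the normoxia group they stayed in normal atmospheric oxygen. The labels place a return of the hypoxia worms to normal oxygen after the 16 h, and whether any time passed there before the worms were washed and frozen was not given in the sources used here. A share of the worms laid the eggs of the next generation, which was exposed again at L4, up to the fourth generation, with 3 biological replicates per condition and exposure. The number of exposures, the generation and the time at which the worms were grown therefore changed together in this design and cannot be told apart. Because whole worms were sequenced, fewer cells of a type and less RNA per cell cannot be told apart either. Of 46926 genes in the count table, 12517 had at least 350 counts summed over the 6 libraries of every exposure and were tested.

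Animals sense low oxygen largely through the transcription factor HIF-1. In normal oxygen the prolyl hydroxylase EGL-9 marks HIF-1, the ubiquitin ligase subunit VHL-1 then binds it, and HIF-1 is degraded. When oxygen is scarce the hydroxylase stalls, and HIF-1 accumulates and pairs with AHA-1. Genes of glycolysis, heme handling, hydrogen sulfide detoxification and the extracellular matrix are among those then known to be transcribed. The worm also has HIF-1-independent responses to low oxygen, among them heat shock proteins and changes in the use of fat and sugar stores.

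The libraries held between 26862487 and 44738851 counts in hypoxia (median 33519471) and between 29373731 and 46228496 in normoxia (median 33517710). Levels are given as CPM, edgeR's measure of a gene's share of its library's counts after TMM normalization (a scaling that equates the bulk of genes between libraries), and they are not divided by gene length. Effects are log2 fold changes, hypoxia over normoxia, with their standard error (SE), and a gene is said to have risen or fallen where edgeR's quasi-likelihood test gave a Benjamini-Hochberg adjusted p under 0.05 over all tested genes. Ribosomal RNA took 0.431% to 17.5% of counts, and the only libraries above 10% were exposure 3 hypoxia replicate 2 and exposure 4 hypoxia replicate 1. Gene positions are from the Ensembl annotation of the WBcel235 assembly.

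Hypoxia had a common effect on most of the measured transcriptome, but for most genes that effect was small. Across the 4 exposures 3433 genes rose, 27.4% of those tested, and 4018 fell, 32.1%. The median rise was 0.65 and the median fall was -0.35, and the common effect reached at least 1 on the log2 scale for 1140 of the genes that rose and 531 of those that fell. Only 100 genes rose and 66 fell by at least 2 on the log2 scale. Rises were also the more regular: 2613 of the 3433 genes that rose (76.1%) had a positive effect in each exposure, while 2124 of the 4018 that fell (52.9%) had a negative effect in each. When the 4 exposures rather than the 12 libraries per condition were taken as the replicates, 1006 genes rose and 269 fell, of which 1005 and 269 had also been called with libraries as replicates. Of the genes selected for description by name that rose or fell, 93 kept their call in that stricter test and 89 did not, and where a gene described below did not, that adjusted p is given with it or at the end of its paragraph.

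A stricter group of genes, here called the core response, combined size with regularity. A core gene was called for the common effect, changed by at least 1 on the log2 scale, and had all 3 hypoxia libraries on the same side of all 3 normoxia libraries within each of the 4 exposures. By this rule 615 genes (4.91% of those tested) made up the core rise and 225 (1.8%) the core fall. Without the 2 hypoxia libraries rich in ribosomal RNA, an alternative chosen after seeing the data, the core held 878 rises and 252 falls. The separation of libraries in all 4 exposures was met by 994 tested genes upwards (7.94%) and 480 downwards (3.83%). These values chose the core genes and are given as a description. The core gene nearest the size threshold had a common effect of 1.011 upwards or -1.004 downwards, and the nearest gene outside it that was separated in all 4 exposures had 0.996 or -0.998. A further 525 genes that rose by at least 1 and 306 that fell by at least 1 were left out because their libraries overlapped in some exposure. For 363 core genes every one of the 12 hypoxia libraries lay above every one of the 12 normoxia libraries, whatever the exposure, and for 114 every one lay below. Over all tested genes, in or outside the core, these numbers were 477 and 198.

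**Figure D1:**
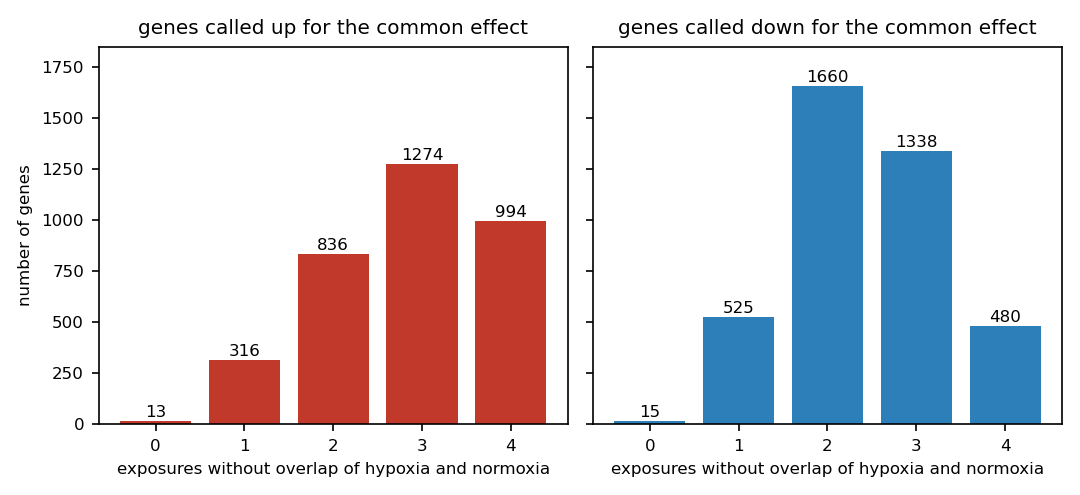
Number of genes (vertical axis) with a common rise or fall in hypoxia, by the number of exposures (horizontal axis, 0 to 4) in which all 3 hypoxia libraries lay on the side of the common effect. Of the genes that rose, 994 were separated in all 4 exposures and 1274 in 3, and of those that fell, 480 in all 4 and 1338 in 3.

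The core rises whose smallest exposure effect was largest included genes for a small heat shock protein, enzymes that modify small molecules and an antimicrobial peptide. Several others coded for proteins without a described role. *cex-1*, which codes for the calcium-binding protein calexcitin, on chromosome II from 5447681 to 5448634, had between 36.7 and 90.9 CPM in the hypoxia libraries (median 69.7), against 5.13 to 14.9 CPM in the normoxia libraries (median 9.80). The 2 conditions did not overlap, its common effect was 2.80 (SE 0.12, adjusted p = 1.48e-12), and its effects in exposures 1 to 4 were 2.84, 2.94, 2.68 and 2.75. *hsp-12.3*, a small heat shock protein gene, on chromosome IV from 9444791 to 9445507, had between 70.3 and 134 CPM in the hypoxia libraries (median 117), against 0.688 to 9.44 CPM in the normoxia libraries (median 2.2002). Its lowest hypoxia library exceeded its highest normoxia library several-fold, and the common effect was 5.38 (SE 0.31, adjusted p = 2.59e-11). *dod-3*, named as a gene downstream of the transcription factor DAF-16, had between 28.97 and 183 CPM in the hypoxia libraries (median 96.8), against 1.66 to 17.3 CPM in the normoxia libraries (median 8.62). The common effect of *dod-3* was 3.41 (SE 0.30, adjusted p = 7.62e-09), and the 4 exposures gave 3.06, 3.28, 3.74 and 3.53.

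Enzyme genes were among the core rises that went furthest. *comt-4*, which codes for a predicted catechol O-methyltransferase, on chromosome V from 2049217 to 2050185, had between 233 and 1409.7 CPM in the hypoxia libraries (median 541), against 0.313 to 69.98 CPM in the normoxia libraries (median 9.06). Its common effect was 6.09 (SE 0.78, adjusted p = 9.38e-07), the spread between normoxia libraries was wide, and every hypoxia library still lay above every normoxia library. *cyp-14A4*, a cytochrome P450 gene, on chromosome X from 13282043 to 13284197, had between 5.84 and 30.02 CPM in the hypoxia libraries (median 9.59), against 0.0681 to 0.867 CPM in the normoxia libraries (median 0.321). At these low normoxia levels the size of its fold change rests on few counts, and the common effect was 5.13 (SE 0.35, adjusted p = 3.03e-10). *cnc-4*, which codes for a caenacin, an antimicrobial peptide of the epidermis, had between 22.5 and 119 CPM in the hypoxia libraries (median 29.97), against 2.01 to 3.79 CPM in the normoxia libraries (median 2.90). All hypoxia libraries again lay above all normoxia libraries, with a common effect of 3.79 (SE 0.25, adjusted p = 1.62e-10). Among the core genes without a role that could be given here, the common effects were 4.80 for *B0205.13*, 4.55 for *C18D11.6*, 4.19 for *F33H12.7* and 4.05 for *F08G2.5*.

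**Figure D2:**
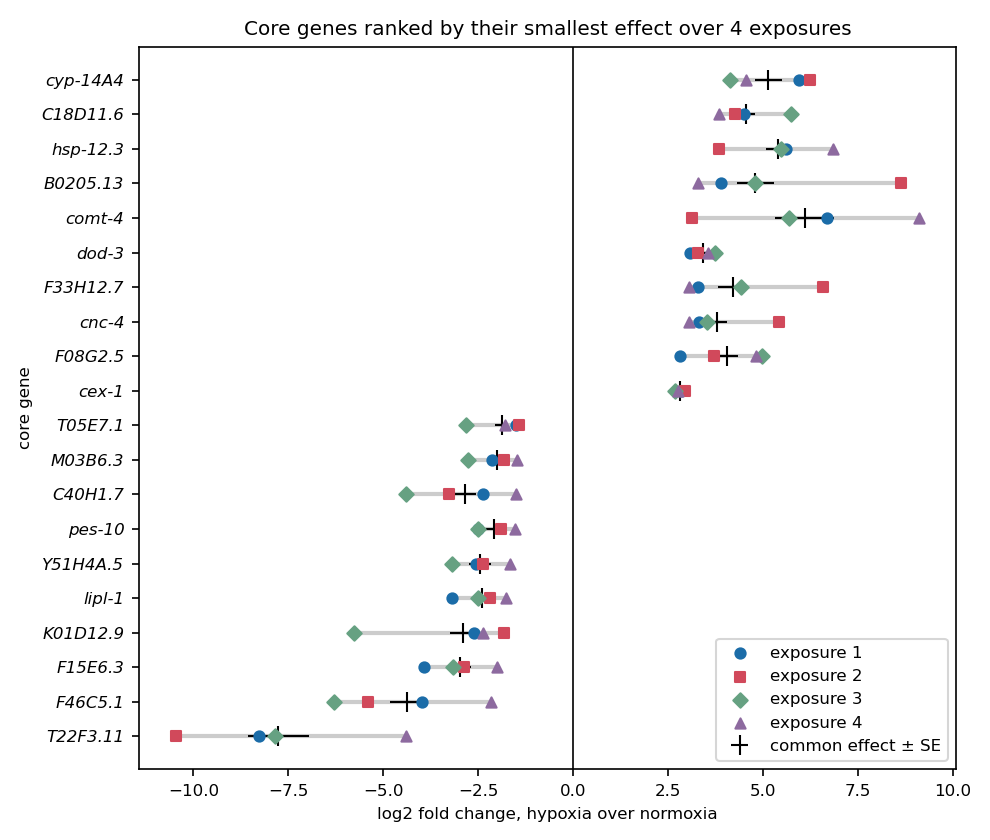
Log2 fold change (hypoxia over normoxia, horizontal axis) in exposures 1 to 4 (one symbol per exposure), with the common effect. Rows are the core genes whose smallest exposure effect was largest in size. Rises such as *cex-1* (2.84, 2.94, 2.68 and 2.75 in exposures 1 to 4) and falls such as *T22F3.11* (-8.27, -10.46, -7.85 and -4.41) kept 1 direction throughout.

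The core falls whose smallest exposure effect was largest in size included a lysosomal lipase, an early embryonic transcript and genes with no described role. *lipl-1*, which codes for a lysosomal lipase known from the fasting response of the intestine, on chromosome V from 12919986 to 12921692, had between 1.90 and 9.19 CPM in the hypoxia libraries (median 5.24), against 10.5 to 56.0 CPM in the normoxia libraries (median 25.9). No hypoxia library reached the lowest normoxia library, and the common effect was -2.40 (SE 0.21, adjusted p = 8.61e-09). *pes-10*, one of the earliest genes transcribed in the embryo, had between 0.311 and 1.87 CPM in the hypoxia libraries (median 0.712), against 2.03 to 5.66 CPM in the normoxia libraries (median 3.47). Its common effect was -2.096 (SE 0.21, adjusted p = 4.62e-08), and the libraries of the 2 conditions did not overlap. *T22F3.11*, on chromosome V from 3612158 to 3614553, had between 0.144 and 1.73 CPM in the hypoxia libraries (median 0.684), against 9.45 to 855 CPM in the normoxia libraries (median 181), the largest fall of this group. Its normoxia libraries spread widely, its hypoxia libraries were all near the lower limit of counting, and the common effect was -7.76 (SE 0.81, adjusted p = 6.91e-08). The remaining members were *F46C5.1* (-4.36), *F15E6.3* (-2.98), *K01D12.9* (-2.89), *C40H1.7* (-2.84), *Y51H4A.5* (-2.45), *M03B6.3* (-2.02) and *T05E7.1* (-1.89), with the common log2 effect in brackets.

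Core genes were found at high levels too, and there the rises were mostly of metabolic genes and the falls of yolk, eggshell and cuticle genes. *pck-1*, which codes for phosphoenolpyruvate carboxykinase of gluconeogenesis, on chromosome III from 62888 to 66260, had between 535 and 1674 CPM in the hypoxia libraries (median 1018), against 197 to 400.0 CPM in the normoxia libraries (median 276), and its common effect was 1.82 (SE 0.14, adjusted p = 8.55e-10). *fat-1*, the omega-3 fatty acid desaturase gene, had between 829 and 2467 CPM in the hypoxia libraries (median 1358), against 316 to 1080.3 CPM in the normoxia libraries (median 463). The conditions overlapped for *fat-1* across exposures but not within any of them, and the common effect was 1.38 (SE 0.18, adjusted p = 1.24e-06). *gpd-3* and *gpd-2*, near-identical neighbouring genes for the glycolytic enzyme GAPDH between which reads may have been divided, had common effects of 1.22 (SE 0.087, adjusted p = 4.77e-10) and 1.13 (SE 0.077, adjusted p = 3.02e-10). *tos-1*, whose name stands for target of splicing, had a common effect of 1.22 (SE 0.16, adjusted p = 1.5e-06). Among the falls, the yolk protein gene *vit-6* had between 5312 and 15541 CPM in the hypoxia libraries (median 10528), against 14307 to 31179 CPM in the normoxia libraries (median 22767), with a common effect of -1.17 (SE 0.17, adjusted p = 6.64e-06). *perm-2*, needed for the permeability barrier of the eggshell, had between 108 and 329.6 CPM in the hypoxia libraries (median 277), against 389 to 552 CPM in the normoxia libraries (median 487), and the 2 conditions did not overlap. The other abundant core falls were *vit-5* (-1.17), *epic-2* (-1.25) and the collagen gene *col-184* (-1.05). Neither *fat-1* nor *vit-5* was called with exposures as replicates (adjusted p = 0.054 and 0.052).

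**Figure D3:**
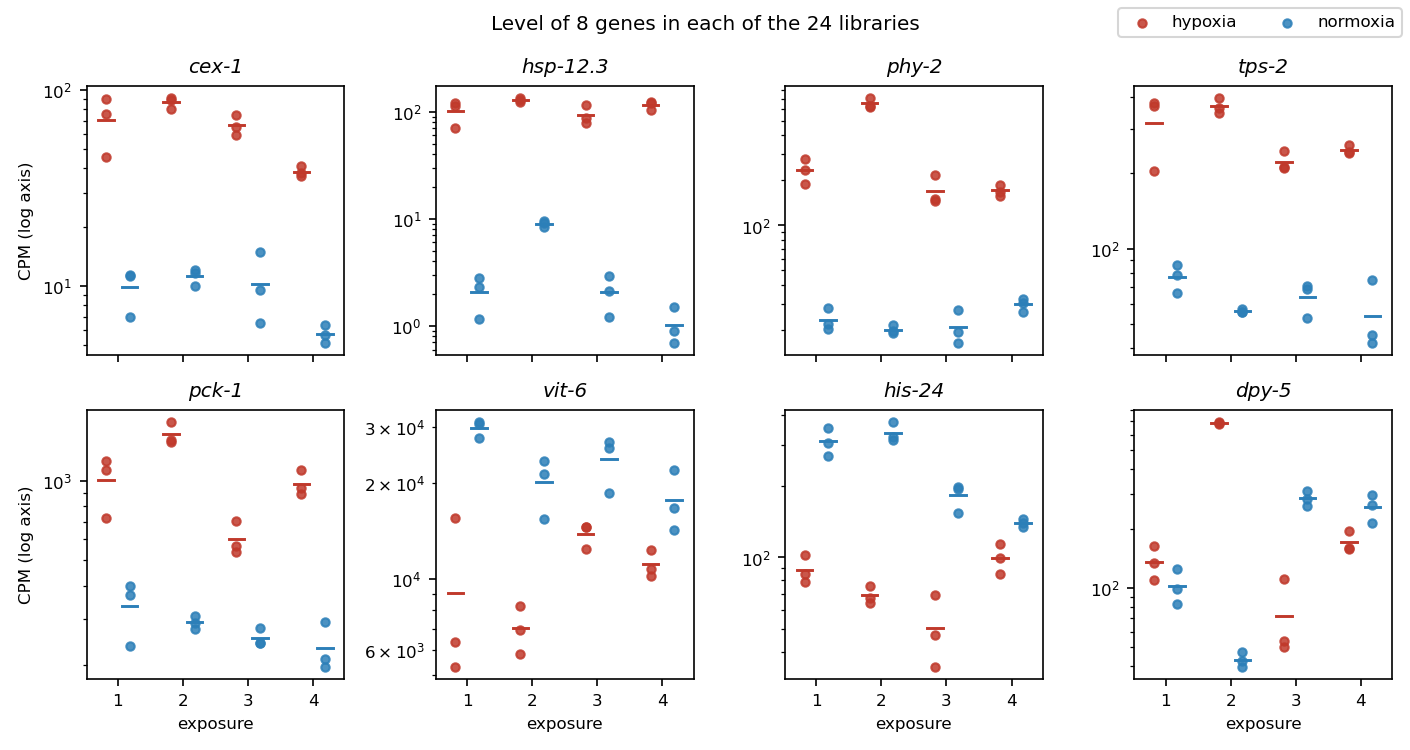
CPM (log axis) of selected genes in each of the 24 libraries, with hypoxia libraries left of normoxia libraries within each of exposures 1 to 4. All are core genes except *dpy-5*, which changed direction between exposures. For *cex-1* the 12 hypoxia libraries lay between 36.7 and 90.9 CPM, all above the 12 normoxia libraries at 5.13 to 14.9 CPM.

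The core rise held 584 protein-coding genes, 25 pseudogenes and 6 noncoding genes, and the core fall 215, 7 and 3. The most abundant noncoding member was *tts-1*, a long RNA known from long-lived worms, which had between 1466 and 4968 CPM in the hypoxia libraries (median 2849), against 65.6 to 2419 CPM in the normoxia libraries (median 784) and had a common effect of 1.97 (SE 0.46, adjusted p = 0.000983). Its normoxia libraries covered a wide range that overlapped the hypoxia range across exposures, and with exposures as replicates it was not called (adjusted p = 0.0512). The noncoding locus *W05H9.3* had a common effect of 1.37 (SE 0.15, adjusted p = 1.2e-07). *Y40B10A.10*, whose annotated span lies inside that of *comt-4*, had 5.92 (SE 0.63, adjusted p = 8.92e-08), and because the strand setting of the counting was not given in the sources used here, its reads cannot be told apart from those of *comt-4*.

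Several targets of HIF-1 rose, while the genes for HIF-1 itself, its partner AHA-1 and VHL-1 were not called. Of 13 tested members of the pathway list 7 rose, 0 fell and 6 were not called, with a median effect of 0.35 against -0.05 over all tested genes. In exposures 1 to 4, 4, 7, 4 and 4 of them rose and 0, 1, 0 and 1 fell. Of all tested genes 27.4% rose and 32.1% fell in common, and the counts of this and later lists stand beside these shares. *F22B5.4*, a known HIF-1 target, on chromosome II from 8449710 to 8452742, had between 21.9 and 121 CPM in the hypoxia libraries (median 64.2), against 2.80 to 6.99 CPM in the normoxia libraries (median 4.28). The conditions did not overlap, and the common effect was 3.75 (SE 0.24, adjusted p = 1.07e-10). *cysl-2*, a cysteine synthase-like gene controlled by HIF-1, had between 147 and 425 CPM in the hypoxia libraries (median 202), against 32.6 to 151 CPM in the normoxia libraries (median 52.4), with a common effect of 1.68 (SE 0.27, adjusted p = 1.85e-05). *sqrd-1*, which codes for the sulfide-oxidizing enzyme of mitochondria, had 1.4995 (SE 0.18, adjusted p = 3.23e-07). *egl-9*, the oxygen-sensing hydroxylase and itself a HIF-1 target, rose by 0.33 (SE 0.09, adjusted p = 0.00347), with effects of 0.48, 0.66, 0.27 and -0.087 in exposures 1 to 4, and was not called with exposures as replicates (adjusted p = 0.232) or without exposure 1 or 2 (adjusted p = 0.0592 and 0.0928). *hif-1* had 257 CPM in hypoxia and 233 CPM in normoxia as medians, with an effect of 0.11 (SE 0.07, adjusted p = 0.187). *vhl-1* had an effect of -0.11 (SE 0.071, adjusted p = 0.199), *rhy-1*, a negative regulator of HIF-1, one of -0.59 (SE 0.26, adjusted p = 0.053), and the HIF-1 target *nhr-57* one of 0.63 (SE 0.28, adjusted p = 0.0589). By DESeq2 *rhy-1* was called as a fall and *nhr-57* as a rise (adjusted p = 0.0283 and 0.0359). By edgeR *rhy-1* was called as a fall without exposure 2 (adjusted p = 0.0242) and *nhr-57* as a rise without exposure 4 (adjusted p = 0.000377). *hif-1* was called as a rise without exposure 2 or 3 (adjusted p = 0.0319 and 0.0419).

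A pair of genes outside that list, chosen after their values were seen, also belong to functions known to depend on HIF-1. *phy-2*, which codes for a subunit of the collagen prolyl 4-hydroxylase, on chromosome IV from 12211097 to 12215987, had between 146 and 709 CPM in the hypoxia libraries (median 203), against 16.3 to 32.0 CPM in the normoxia libraries (median 21.8). Its common effect was 3.45 (SE 0.24, adjusted p = 3.66e-10), with 3.32, 5.02, 3.03 and 2.53 in exposures 1 to 4. *hrg-1*, which codes for a heme transporter of the intestine, on chromosome X from 4008057 to 4016221, had between 91.0 and 223 CPM in the hypoxia libraries (median 113), against 8.98 to 25.5 CPM in the normoxia libraries (median 13.5), and its common effect was 3.14 (SE 0.18, adjusted p = 2.52e-11). Both had every hypoxia library above every normoxia library.

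Genes of sugar metabolism rose on both the glycolytic and the gluconeogenic side, whereas trehalose and glycogen genes moved both ways. In glycolysis 13 of 19 tested genes rose (68.4%) and 4 fell (21.1%), against 27.4% and 32.1% of all tested genes. Their median was 0.48, and only *gpd-2* and *gpd-3* were core. *pfk-1.1*, the rate-controlling phosphofructokinase, rose by 0.34 (SE 0.063, adjusted p = 8.41e-05), and *ldh-1*, lactate dehydrogenase, by 0.57 (SE 0.09, adjusted p = 1.46e-05). Neither was called with exposures as replicates (adjusted p = 0.211 and 0.102). *aldo-1* and *enol-1*, aldolase and enolase genes named after their values were seen, rose by 0.92 and 0.68. *pyk-1*, pyruvate kinase, had an effect of 0.028 (SE 0.084, adjusted p = 0.788). The second phosphofructokinase gene *pfk-1.2* rose by 1.61 (SE 0.18, adjusted p = 1.62e-07), with 1.92, 2.22, 0.38 and 1.87 in exposures 1 to 4. Among the 4 genes that fell were *hxk-2*, a hexokinase gene, at -0.40 (SE 0.048, adjusted p = 4.56e-07), and *gpd-1*, at -0.30 (SE 0.083, adjusted p = 0.00415). The calls of *aldo-1*, *enol-1*, *hxk-2* and *gpd-1* were lost in that test too (adjusted p = 0.0588, 0.064, 0.094 and 0.293).

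In gluconeogenesis and the glyoxylate cycle 4 of 5 genes rose, with a median of 0.58. Besides *pck-1* these were *pck-2* (0.57), the pyruvate carboxylase gene *pyc-1* (0.50) and the fructose-1,6-bisphosphatase gene *fbp-1* (0.32), while the glyoxylate cycle gene *icl-1* had 0.67 (SE 0.36, adjusted p = 0.114). *pck-2* was not called with exposures as replicates (adjusted p = 0.278) or without exposure 4 (adjusted p = 0.213). Of 12 trehalose and glycogen genes 3 rose (25%) and 6 fell (50%), against 27.4% and 32.1% of all tested genes, with a median of -0.24. *tps-2*, a trehalose 6-phosphate synthase gene, on chromosome II from 14600902 to 14610554, had between 205 and 397 CPM in the hypoxia libraries (median 252), against 41.99 to 85.7 CPM in the normoxia libraries (median 62.0). It was the only core gene of the list, with a common effect of 2.18 (SE 0.12, adjusted p = 2.52e-11) and exposure effects of 2.05, 2.71, 1.79 and 2.19. Its paralogue *tps-1* had 0.25 (SE 0.23, adjusted p = 0.353), with 0.46, -0.95, 0.17 and 1.31 in exposures 1 to 4. The trehalose phosphatase gene *gob-1* rose by 0.63, and *aagr-1*, an acid alpha-glucosidase gene, and *tre-3*, a trehalase gene, had -1.22 and -0.78. With exposures as replicates *pyc-1*, *fbp-1*, *gob-1*, *aagr-1* and *tre-3* were not called either (adjusted p = 0.0787, 0.18, 0.0661, 0.0913 and 0.128).

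More genes of fatty acid oxidation rose than fell, and genes of the propionate shunt were among the falls. Of 25 fatty acid oxidation genes 14 rose (56%) and 5 fell (20%), against 27.4% and 32.1% of all tested genes. Their median was 0.39, and both directions occurred among the peroxisomal acyl-CoA oxidase genes. *acox-3*, a peroxisomal acyl-CoA oxidase gene, on chromosome IV from 6245358 to 6248492, had between 84.1 and 346 CPM in the hypoxia libraries (median 201), against 18.3 to 90.5 CPM in the normoxia libraries (median 38.7). Its common effect was 2.03 (SE 0.23, adjusted p = 1.66e-07) and its exposure effects were 2.01, 2.47, 1.97 and 1.67. *acox-1.1* rose by 1.21 (SE 0.17, adjusted p = 2.37e-06). *acdh-1*, the acyl-CoA dehydrogenase of the propionate shunt, had effects of -0.023, 0.24, -4.91 and -4.90 in exposures 1 to 4, with a common effect of -2.38 (SE 0.71, adjusted p = 0.00634), and *hacd-1*, of the same shunt, had -1.41, -3.66, -2.35 and 0.76. Neither was called with exposures as replicates (adjusted p = 0.215 and 0.189), and *acdh-1* was not called without exposure 3 or 4 (adjusted p = 0.148 and 0.132). *acs-2*, an acyl-CoA synthetase gene, had -0.11 (SE 0.52, adjusted p = 0.867).

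The desaturase genes that introduce double bonds into fatty acids had a median of 0.76, with 4 of 7 rising, 0 falling and 3 not called. Of all tested genes 27.4% rose and 32.1% fell. The exposure medians of the desaturase genes were 1.07, -0.63, 0.20 and 2.24. *fat-6* and *fat-7*, the stearoyl-CoA desaturases, rose by 1.54 (SE 0.29, adjusted p = 0.000101) and 1.87 (SE 0.37, adjusted p = 0.000216). Their exposure effects were 1.87, -0.29, 1.71 and 2.72 for *fat-6* and 0.45, 1.61, 3.16 and 2.24 for *fat-7*, and with exposures as replicates neither they nor *fat-1* were called (adjusted p = 0.111, 0.0789 and 0.054). *fat-5*, the palmitoyl-CoA desaturase gene, had -0.38, -3.40, -0.75 and 2.42 in exposures 1 to 4 and a common effect of -0.54 (SE 0.57, adjusted p = 0.429).

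Most genes of respiration and of the ribosome rose, by small amounts. In the respiratory chain and ATP synthase list 32 of 44 genes rose, 0 fell and the median was 0.18. The largest were *cyc-2.1*, cytochrome c, at 0.54 (SE 0.064, adjusted p = 3.86e-07), and *sdha-1*, of succinate dehydrogenase, at 0.53 (SE 0.084, adjusted p = 1.66e-05). Of 80 ribosomal protein genes 62 rose and 0 fell, with a median of 0.23, which was 0.08, 0.64, 0.09 and 0.08 in exposures 1 to 4. Within single exposures 4, 78, 5 and 5 of the 80 rose, so the count of rises was far higher in exposure 2. Of all 12517 tested genes 2745, 3636, 2154 and 3112 rose in exposures 1 to 4, and 2836, 5047, 2500 and 1585 fell. *rps-20* had between 1019 and 1579.7 CPM in the hypoxia libraries (median 1350.2), against 909 to 1175 CPM in the normoxia libraries (median 1068), and its effect was 0.33 (SE 0.052, adjusted p = 1.07e-05). Neither list had a core gene. Translation initiation genes rose in 9 of 22 cases and fell in 2, with *ife-4* at -0.69 (SE 0.073, adjusted p = 9.09e-08) and *eif-3.F* at 0.34 (SE 0.046, adjusted p = 2.22e-06). Of 33 proteasome genes 2 rose and 2 fell in common, with a median of -0.03, but 32 of the 33 differed between exposures. In exposures 1 to 4, 2, 11, 12 and 1 of them rose and 13, 0, 0 and 20 fell, with medians of -0.16, 0.12, 0.17 and -0.25. Of the genes named here *cyc-2.1*, *sdha-1*, *rps-20* and *eif-3.F* were not called with exposures as replicates (adjusted p = 0.0565, 0.119, 0.1435 and 0.125).

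Most heat shock genes rose, and 2 small heat shock protein genes, *hsp-12.3* and *hsp-12.6*, had the largest effects of their list. Of 15 heat shock genes 12 rose (80%) and 1 fell (6.67%) in common, against 27.4% and 32.1% of all tested genes. Their median was 0.86, with exposure medians of 0.551, 0.604, 1.285 and 1.065, and 6 were core. All 15 differed between exposures. In exposures 1 to 4, 10, 10, 12 and 13 of them rose and 1, 3, 0 and 0 fell. Of these genes 2 rose in 1 exposure and fell in another, both changes called. *hsp-12.6* had between 11.6 and 40.5 CPM in the hypoxia libraries (median 15.1), against 0.502 to 6.91 CPM in the normoxia libraries (median 1.57), and the common effect was 3.18 (SE 0.37, adjusted p = 2.74e-07). *hsp-70*, the inducible cytosolic chaperone gene, had 1.28 (SE 0.12, adjusted p = 1.3e-08), *hsp-16.2* had 1.18 (SE 0.083, adjusted p = 3.95e-10) and *hsp-16.41* had 1.03 (SE 0.096, adjusted p = 1.85e-08). Counts of the *hsp-16* genes, which are close copies of each other, may have been divided among them. *hsp-17*, named after its values were seen, rose by 1.48, and the single common fall was *hsp-43* at -0.41 (SE 0.13, adjusted p = 0.00892). Of 8 chaperone genes of mitochondria and the endoplasmic reticulum 4 rose and 0 fell. The mitochondrial chaperone *hsp-6* had between 866 and 1308 CPM in the hypoxia libraries (median 954), against 511 to 645 CPM in the normoxia libraries (median 564). Its conditions did not overlap and its effect was 0.83 (SE 0.071, adjusted p = 5.55e-09), while *hsp-4*, the BiP homologue, had 0.30, 1.52, 0.42 and 0.21 in exposures 1 to 4. *hsp-43* and *hsp-4* were not called with exposures as replicates (adjusted p = 0.273 and 0.1845).

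Metal and iron genes rose in every tested case, while 27.4% of all tested genes rose. The 4 members of the metallothionein and cadmium response list had a median of 1.54, with *cdr-4* at 2.35 (SE 0.25, adjusted p = 1.02e-07), *mtl-1* at 1.78 (SE 0.40, adjusted p = 0.000644), *cdr-2* at 1.303 and *mtl-2* at 0.79. *ftn-1*, the ferritin gene of the intestine, on chromosome V from 7546468 to 7547579, had between 2.80 and 22.9 CPM in the hypoxia libraries (median 12.64), against 0.725 to 6.78 CPM in the normoxia libraries (median 1.15). The common effect of *ftn-1* was 2.75 (SE 0.26, adjusted p = 1.81e-08), and the exposures gave 1.94, 2.01, 4.27 and 2.90. The second ferritin gene *ftn-2* rose by 0.56, and the metal transporter genes *smf-3*, *smf-1* and *smf-2* rose by 1.13, 0.32 and 0.62. With exposures as replicates *cdr-4*, *mtl-2* and *ftn-1* were still called, while *mtl-1*, *cdr-2*, *ftn-2*, *smf-3*, *smf-1* and *smf-2* were not (adjusted p = 0.0682, 0.111, 0.0682, 0.0789, 0.15 and 0.227). *smf-2* was not called without exposure 2 either (adjusted p = 0.108). Of 8 antioxidant genes 5 rose and 0 fell, with a median of 0.19 and the catalase genes *ctl-1* (0.79) and *ctl-3* (0.64) at the top. In the same test *ctl-3* was not called (adjusted p = 0.063).

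Cytochrome P450 genes were found in both the core rise and the core fall, whereas every core member of the conjugating families rose. Of 38 cytochrome P450 genes 8 rose (21.1%) and 13 fell (34.2%), against 27.4% and 32.1% of all tested genes, and the median was -0.07. They had 5 members in the core rise and 2 in the core fall, whose shares of all tested genes were 4.91% and 1.8%. *cyp-33C8* had between 19.9 and 168 CPM in the hypoxia libraries (median 92.8), against 4.82 to 16.36 CPM in the normoxia libraries (median 10.7), with a common effect of 2.83 (SE 0.21, adjusted p = 1.08e-09). *cyp-25A1* went the other way, with -2.05 (SE 0.24, adjusted p = 3.86e-07). Of 50 UDP-glucuronosyltransferase genes, whose products conjugate small molecules to sugar, 21 rose and 7 fell, 7 of the rises were core, and the exposure medians were 0.53, 0.98, -0.37 and 0.45, with *ugt-33* at 2.24 (SE 0.23, adjusted p = 6.88e-08) and *ugt-16* at 2.60 (SE 0.36, adjusted p = 2.49e-06). Of 25 glutathione S-transferase genes 13 rose and 3 fell, with *gsto-1* at 1.67 and *gst-41* at -0.99. All 3 tested catechol O-methyltransferase genes rose, and *comt-5* had between 2.84 and 14.04 CPM in the hypoxia libraries (median 7.96), against 1.21 to 5.31 CPM in the normoxia libraries (median 1.76), with an effect of 1.83 (SE 0.22, adjusted p = 4.59e-07). *ugt-16* and *gsto-1* were not called with exposures as replicates (adjusted p = 0.0592 and 0.0748).

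Among genes of defence against microbes 34 of 81 C-type lectins fell (41.98%) and 15 rose (18.5%), against 32.1% and 27.4% of all tested genes, and the median was -0.28. *clec-7* had -2.57 (SE 0.38, adjusted p = 5.85e-06) and *clec-153* 1.52 (SE 0.13, adjusted p = 6e-09). Of 9 lysozyme genes 5 rose and 2 fell, with *ilys-4* at 1.36 (SE 0.12, adjusted p = 7.83e-09) and exposure effects of 1.53, 1.01, 1.296 and 1.59. Of 10 caenacin and related peptide genes 4 rose and 1 fell. The median of this list was 0.12, 2.34, -0.35 and 0.39 in exposures 1 to 4.

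The median effect of cuticle collagen and molting genes was positive in exposure 2 and negative in the other exposures. Of 110 *col* collagen genes 35 fell in common (31.8%, near the 32.1% of all tested genes) and 15 rose (13.6%, against 27.4%), with a median of -0.12, while the median was -0.15, 2.02, -1.35 and -0.42 in exposures 1 to 4. Of 20 body-shape collagen genes 1 rose (5%) and 7 fell (35%, against 32.1% of all tested genes). Of the falls 4 were core, with all hypoxia libraries below all normoxia libraries in exposure 2 as well. The exposure medians of the 20 genes were -0.54, 3.19, -1.86 and -0.86. The counts of both lists depended on the model. When the average of the 4 exposure effects was tested instead, 40 *col* genes rose and 45 fell. Of the body-shape genes 8 rose and 9 fell in that test, and of all tested genes 3915 rose and 4929 fell. In the summed level of the 20 body-shape genes, hypoxia worms had 1203, 5360, 691 and 1564 CPM in exposures 1 to 4, against 1504, 1846, 2011 and 2066 CPM in normoxia worms. Collagens are transcribed in pulses tied to each molt, and the part of developmental stage in these values was not tested. *dpy-17*, a body-shape collagen gene, had -1.88, -5.08, -3.42 and 0.074 in exposures 1 to 4, and *dpy-14*, another, had -1.76, -5.22, -3.46 and -0.017. *col-113* was a core rise, with 1.77, 3.69, 0.72 and 2.38. None of these 3 genes was called with exposures as replicates (adjusted p = 0.101, 0.0994 and 0.0524).

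Of 22 molting genes 9 fell (40.9%, against 32.1% of all tested genes) and 1 rose (4.5%, against 27.4%) in common. Their median was -0.43, with exposure medians of -0.46, 0.43, -1.33 and -0.37. In exposure 2, 11 of them rose and 5 fell, and their summed level there was 1627 CPM in hypoxia against 1494 CPM in normoxia. *noah-2*, which codes for a protein of the apical extracellular matrix that precedes the cuticle, on chromosome IV from 14091254 to 14096626, had between 10.4 and 106 CPM in the hypoxia libraries (median 66.3), against 103.96 to 237 CPM in the normoxia libraries (median 176). The common effect was -1.75 (SE 0.22, adjusted p = 7.07e-07), with -1.89, -1.21, -2.64 and -1.28 in exposures 1 to 4. *mlt-11*, a protease inhibitor gene of the molt, had -1.77 (SE 0.28, adjusted p = 1.63e-05) and -1.93, -0.68, -3.32 and -1.26. The protease gene *nas-37* had -0.53 (SE 0.083, adjusted p = 1.23e-05). The molting gene *mlt-10* had -0.93, 0.69, -2.76 and -1.06, *mlt-7*, the gene of a peroxidase that cross-links the cuticle, had 0.73, 2.23, -0.51 and 0.81, and neither was called with exposures as replicates (adjusted p = 0.27 and 0.281). Hedgehog-related genes, many of them expressed in the epidermis, fell in 22 of 49 cases and rose in 10 in common. Their exposure medians were -0.61, 0.69, -1.48 and -0.22, and in exposure 2, 28 of them rose and 8 fell. The largest common changes included *wrt-10* at -1.94 (SE 0.23, adjusted p = 3.86e-07) and *grl-4* at 2.31 (SE 0.28, adjusted p = 5.74e-07). The calls of *mlt-11* and *nas-37* were lost in the same test (adjusted p = 0.0611 and 0.0601).

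Genes of reproduction separated into falls of yolk, eggshell and embryo genes and rises of sperm genes. Yolk proteins are made by the intestine of adult hermaphrodites. Of 6 tested vitellogenin genes 3 fell (50%) and 0 rose in common, against 32.1% and 27.4% of all tested genes. In exposure 2, 1 of them rose and 3 fell. *vit-1* was not called in common but was called as a rise without exposure 1 (1.06, adjusted p = 0.0311). *vit-2* had between 6385 and 16770.0 CPM in the hypoxia libraries (median 13550.0), against 13740.0 to 40274 CPM in the normoxia libraries (median 28166). Its effect was -1.05 (SE 0.19, adjusted p = 7.59e-05), with -1.19, -2.21, -0.60 and -0.26 in exposures 1 to 4, and with exposures as replicates it was not called (adjusted p = 0.112). The close copies *vit-3*, *vit-4* and *vit-5* may have shared reads. The vitellogenin sum was 32520, 26820, 56470 and 37510 CPM in hypoxia in exposures 1 to 4, against 89050, 73550, 79560 and 55260 CPM in normoxia. Against the L4 label, yolk genes were therefore abundant in libraries of both conditions, and embryo transcripts, described next, were counted in them too.

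Of 18 oocyte and eggshell genes 13 fell (72.2%) and 0 rose in common, against 32.1% and 27.4% of all tested genes. Their median was -0.30, with exposure medians of -0.33, -0.82, 0.18 and -0.20. The fall did not hold in exposure 3, where 2 rose and 2 fell and the summed level was 13420 CPM in hypoxia against 12210 CPM in normoxia. *perm-4*, like *perm-2* a gene of the eggshell permeability barrier, had between 245 and 694 CPM in the hypoxia libraries (median 559), against 844 to 1037 CPM in the normoxia libraries (median 958). Its effect was -0.997 (SE 0.11, adjusted p = 2.53e-07), with -1.07, -1.72, -0.45 and -0.75 in exposures 1 to 4. The yolk receptor gene *rme-2* and the eggshell gene *cbd-1* had smaller effects, of -0.27 (SE 0.11, adjusted p = 0.0348) and -0.16 (SE 0.10, adjusted p = 0.185). Of the 10 embryo markers 8 were below the count minimum, and the sum of the other 2 was 4.92, 3.11, 3.64 and 5.87 CPM in hypoxia in exposures 1 to 4, against 18.6, 13.6, 11.7 and 10.7 CPM in normoxia. Both tested members were core falls, *pes-10* and *skr-10*, a ubiquitin ligase subunit gene with -1.52 (SE 0.18, adjusted p = 3.86e-07). Of 12 DNA replication genes 11 fell and 0 rose in common, with a median of -0.25 and exposure medians of -0.27, -0.60, 0.10 and -0.27. In exposure 3, 0 of them fell and 1 rose, and the sum was 3435 CPM in hypoxia against 3244 CPM in normoxia. *pcn-1*, the sliding clamp gene, had -0.42 (SE 0.073, adjusted p = 4.41e-05), and was not called with exposures as replicates (adjusted p = 0.154). How far a smaller number of embryos inside the worms went with these falls was not tested. The calls of *perm-4* and *rme-2* were lost with exposures as replicates (adjusted p = 0.0532 and 0.342).

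Sperm genes moved the other way. All 28 tested major sperm protein genes, which are close copies of each other, rose, against 27.4% of all tested genes. Their median was 0.57, with exposure medians of 1.02, 0.87, -0.14 and 0.56. Their summed level was 1753, 1672, 1692 and 907 CPM in hypoxia in exposures 1 to 4, against 858, 922, 1871 and 606 CPM in normoxia, so the common rise did not hold in exposure 3. Of 15 other spermatogenesis genes 14 rose and 1 fell, with exposure medians of 1.67, 1.55, 0.33 and 1.26. *fer-1*, needed for sperm motility, had between 8.98 and 31.3 CPM in the hypoxia libraries (median 15.8), against 2.201 to 7.58 CPM in the normoxia libraries (median 4.67), with a common effect of 1.97 (SE 0.18, adjusted p = 1.43e-08) and exposure effects of 2.18, 2.58, 0.77 and 2.298. Histone genes were mixed, with 14 of 32 rising and 10 falling (43.8% and 31.2%, against 27.4% and 32.1% of all tested genes). *his-24*, a linker histone gene, had between 34.5 and 114 CPM in the hypoxia libraries (median 77.3), against 134 to 374 CPM in the normoxia libraries (median 234). Its effect was -1.62 (SE 0.17, adjusted p = 1.05e-07), and it overlaps other annotated loci, so that its reads may be shared.

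**Figure D4:**
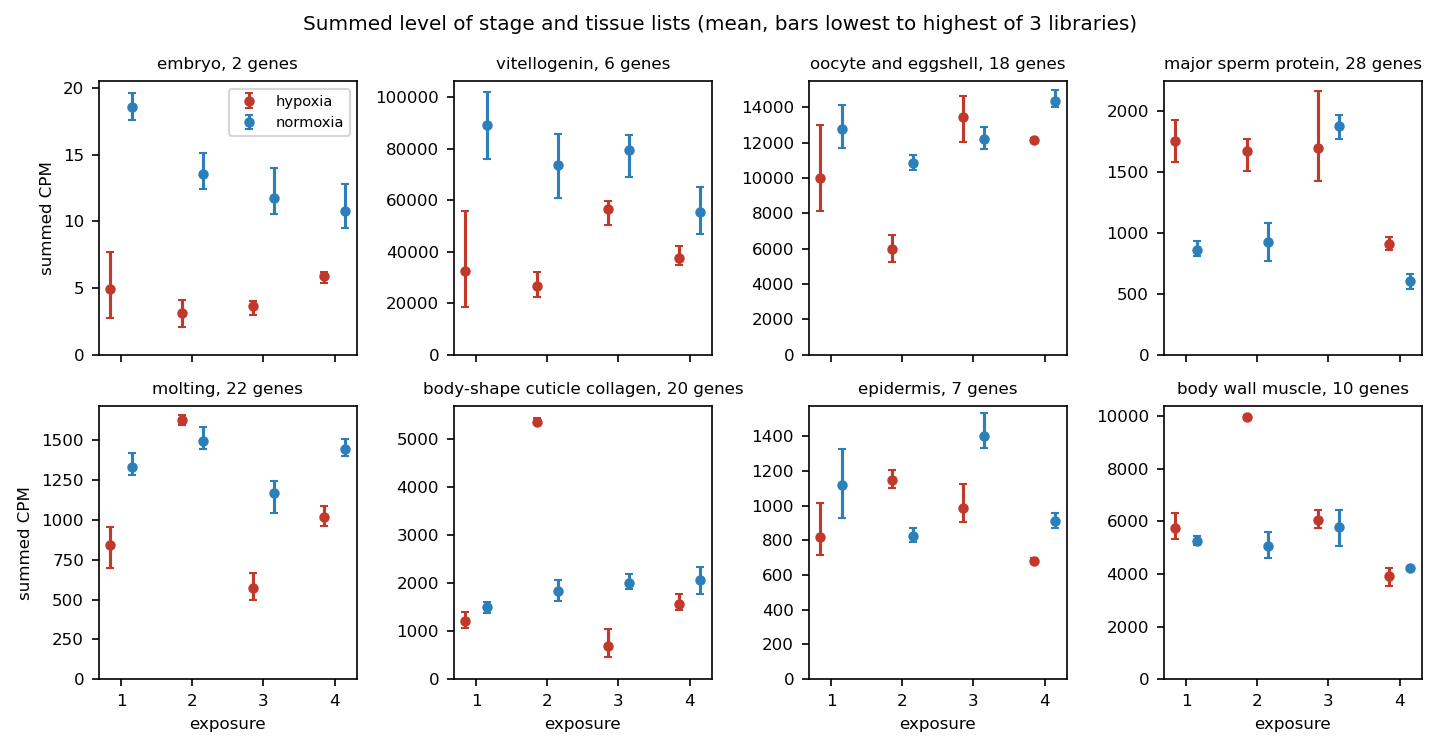
Summed CPM (linear axis) of marker lists, hypoxia left of normoxia within each of exposures 1 to 4. Each value is the mean of the libraries of a group, with a bar from the lowest to the highest library. The lists are those for embryo, yolk, sperm and cuticle, and also for oocyte and eggshell, molting, epidermis and body wall muscle. The vitellogenin sum averaged 32520 CPM in hypoxia and 89050 CPM in normoxia in exposure 1, and the body-shape collagen sum was higher in hypoxia only in exposure 2, at 5360 CPM in hypoxia against 1846 CPM in normoxia.

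Regulators and signalling genes showed no single direction. Of 145 nuclear hormone receptor genes, a family of transcription factors enlarged in nematodes, 53 rose (36.6%) and 38 fell (26.2%), against 27.4% and 32.1% of all tested genes, with a median of 0.08. *nhr-115* had between 3.05 and 18.03 CPM in the hypoxia libraries (median 8.56), against 1.198 to 3.88 CPM in the normoxia libraries (median 2.55), and its effect was 1.78 (SE 0.11, adjusted p = 5.9e-11). *nhr-68*, a regulator of propionate breakdown, had between 13.1 and 26.6 CPM in the hypoxia libraries (median 16.16), against 35.7 to 48.6 CPM in the normoxia libraries (median 42.3). Its conditions did not overlap, and the effect was -1.29 (SE 0.096, adjusted p = 9.77e-10). Of 28 FMRFamide-like neuropeptide genes 15 rose and 0 fell in common, with a median of 0.36. Their exposure medians were 0.62, 0.33, -0.22 and 0.61, and in exposure 3, 0 rose and 2 fell. Of 9 insulin-like peptide genes 5 rose and 1 fell, with *ins-4* at 1.12 (SE 0.25, adjusted p = 0.000789).

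Markers of single tissues gave the following measure of what the whole-worm libraries held. Of 9 intestine markers 4 rose and 2 fell, of 10 body wall muscle markers 3 and 1, of 8 pharynx markers 5 and 1, of 11 neuron markers 2 and 2, of 7 epidermis markers 0 and 5, and of 10 germline markers 1 and 5. These lists are short, and of all tested genes 27.4% rose and 32.1% fell. The epidermis sum was 818, 1147, 986 and 682 CPM in hypoxia in exposures 1 to 4, against 1121, 827, 1401 and 913 CPM in normoxia, and the germline sum was 2563, 1825, 3304 and 2735 CPM in hypoxia, against 2918, 2417, 2855 and 3158 CPM in normoxia. The body wall muscle sum was 5747, 9984, 6064 and 3912 CPM in hypoxia against 5248, 5070, 5771 and 4211 CPM in normoxia, and it too stood out in exposure 2. *elt-2*, the GATA factor gene of the intestine, and *unc-54*, a muscle myosin gene, were taken from these lists after their values were seen. The effects of *elt-2* in exposures 1 to 4 were 0.20, -0.74, -0.97 and 1.31, and those of *unc-54* were 0.34, 1.15, 0.35 and 0.10. The part of tissue composition in the gene groups above was not tested. *unc-54* was not called with exposures as replicates (adjusted p = 0.189).

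For most genes the size of the effect differed between exposures. A test of the difference between the 4 exposure effects was passed by 8535 genes, 68.2% of those tested, and by 3125 when exposure 2 was left out. Among genes not called for the common effect, 3257 of 5066 passed it. In the core rise 510 genes passed it and 105 did not, and in the core fall 174 and 51. The core rise had median effects of 1.87, 2.00, 0.76 and 1.49 in exposures 1 to 4, and exposure 3 gave the smallest effect for 439 of its 615 genes. The core fall had -1.55, -1.78, -1.77 and -0.81, and exposure 4 gave the smallest for 143 of its 225 genes. An effect of at least 1 in every exposure was found for 150 core rises and 44 core falls, and one of at least 2 for 22 and 4.

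**Figure D5:**
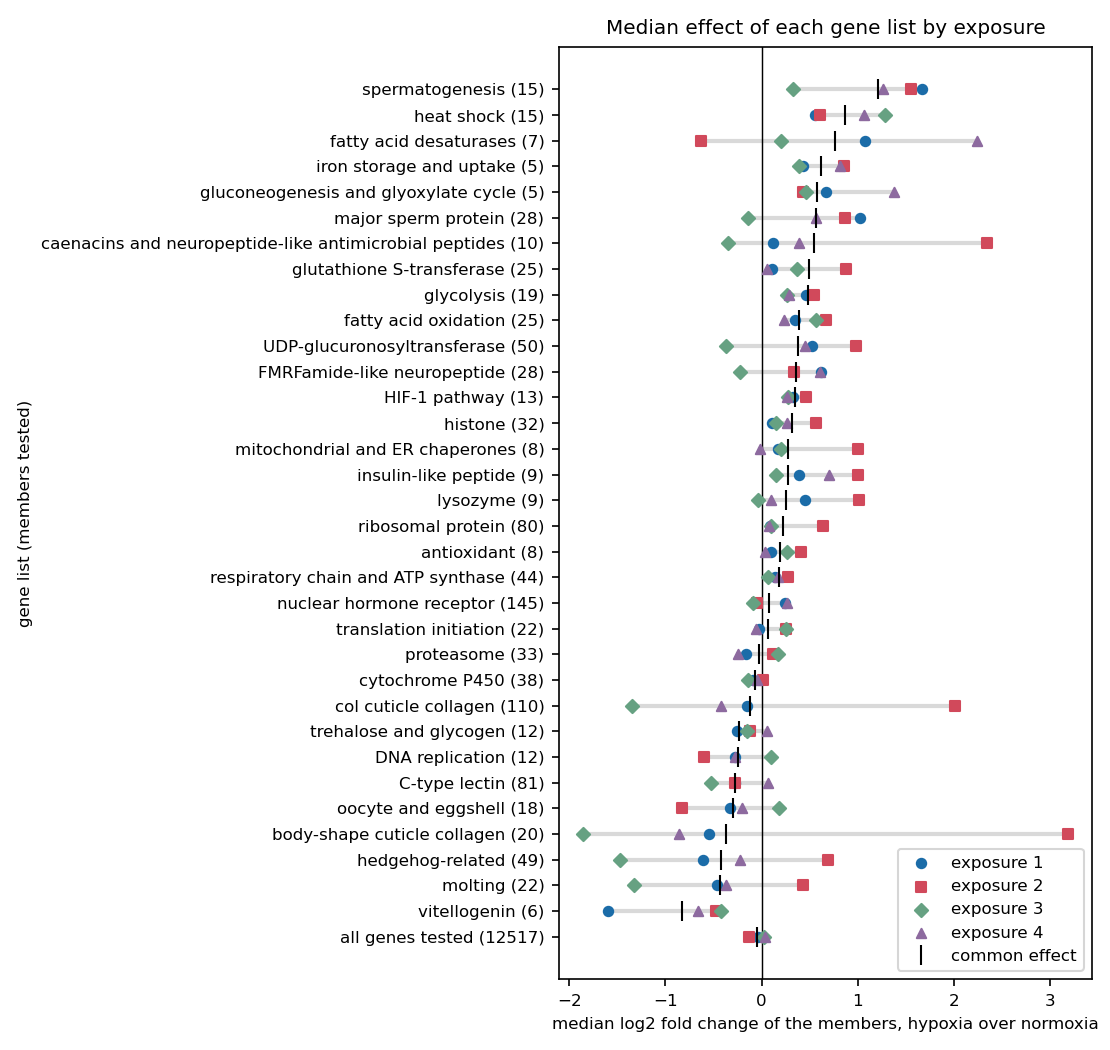
Median log2 fold change (hypoxia over normoxia) of the gene lists in exposures 1 to 4 and in common. The body-shape collagens had medians of -0.54, 3.19, -1.86 and -0.86 in exposures 1 to 4, whereas the respiratory chain list stayed between 0.07 and 0.27.

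A smaller set of genes rose in one exposure and fell in another, and 1350 tested genes (10.8%) did so with both changes called. Exposure 2 stood alone against the other 3 exposures for 520 of them, exposure 3 for 258, exposure 4 for 91 and exposure 1 for 8. The cuticle collagen gene *rol-1* had -0.42, 3.21, -1.98 and -0.49 in exposures 1 to 4. The collagen genes *col-38* and *dpy-5* followed the same order of signs in exposures 2 and 3, with 0.31, 3.63, -2.12 and -0.10 for *col-38* and 0.41, 4.00, -1.99 and -0.60 for *dpy-5*. *Y51H7C.1* had -0.11, 3.29, -0.75 and 0.093. Genes with 1 direction throughout could still differ widely in size. *asns-1*, which codes for asparagine synthetase, had 1.75, 3.56, 0.24 and 1.03, *ZK6.8* had 1.31, 4.34, 0.77 and 1.35, and *col-14* had 2.00, 4.14, 0.12 and 1.16. Among the falls of that kind were the gap junction gene *inx-3* (-0.99, -1.94, -0.46 and -0.25), *nrf-6* (-0.91, -1.07, -1.92 and -0.059) and *ttr-50* (-1.73, -3.54, -1.41 and -0.30). With exposures as replicates these 6 genes were not called for the common effect, at an adjusted p of 0.0914 (*ttr-50*) to 0.138 (*col-14*).

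The chromosome and the level of a gene were not used to choose the core genes. The X chromosome held 57 of the 615 core rises (9.27%) and 51 of the 225 core falls (22.7%), against 13.2% of tested genes. Chromosome IV held 139 of the core rises (22.6%, against 17.6% of tested genes), and chromosome III 20 of the core falls (8.89%, against 16.6%). The core genes were less abundant than the tested genes at large, with a median level of 8.27 CPM for rises and 8.39 CPM for falls against 22.3 CPM over all tested genes. These shares and levels are descriptions without a test. Over all tested genes the oxygen condition took a median of 19.9% of the variation between libraries, the exposure 27.6%, their interaction 18.9% and the replicates 17.9%.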

How the data were processed

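The deposited table held raw read counts per gene for 24 whole-worm libraries. According to the study's methods and the submitters' processing notes, the authors trimmed reads with cutadapt 4.0, aligned them with Bowtie2 and counted them with featureCounts from a directional poly(A) library; aligner version and the strand setting of the counting were not given in the sources used here. Deposited columns of the authors' own comparisons (DESeq2 log2 fold changes and p-values) were not used.

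Groups were taken from the sample labels. Genes with at least 350 counts summed over the 6 libraries of each exposure were kept, after the study's own minimum of 350. The common effect was fitted with edgeR 4.0.16 in R 4.3.3 (TMM normalization, quasi-likelihood F-test, exposure plus condition, two-sided), and the effect in each exposure and its difference between exposures (3 degrees of freedom) in a fit with 8 group means. Adjusted p-values are Benjamini-Hochberg over all tested genes. Separation of libraries was judged on log2 CPM with a prior count of 2. The scripts were tested on simulated data. With exposures as replicates, the 4 exposure differences were tested with limma 3.58.1. Alternatives used DESeq2 1.42.0, limma voom, other scalings and filters, and single libraries or exposures left out. All replicate pairs differed by more than counting noise.

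Named genes were the 10 protein-coding core genes in each direction whose smallest exposure effect was largest (mean of at least 1 CPM), the 5 most abundant in each direction, the 3 most abundant noncoding core genes, the 3 in each direction and the 4 opposite-direction genes that differed most between exposures, and fixed examples plus the 2 largest changes in each direction of each list, with all members of lists of up to 5 genes. Others are marked in the text. The members, lists and rules were chosen with earlier results of these data known. No sequence is printed, and the promoter motifs were not analysed here.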

Additional observations from a re-analysis of the deposited data

Results flagged for a closer look

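The size of the hypoxia effect differed between exposures for 8535 genes by the F-test on 3 degrees of freedom in edgeR, with adjusted p under 0.05, and this held for 510 of the 615 core rises and 174 of the 225 core falls. The following named genes rose in 1 exposure and fell in another, both changes called, and the adjusted p of the difference between exposures is given in brackets. They were *Y51H7C.1* (2.65e-09), *col-38* (3.4e-09), *rol-1* (5.28e-09), *dpy-5* (5.28e-09), *mlt-7* (2.79e-07), *mlt-10* (5.48e-07), *lin-42* (1.12e-06), *dpy-9* (6.5e-06), *dpy-8* (3.32e-05), *fat-5* (6.67e-05), *elt-2* (0.000298) and *tps-1* (0.00118). Of these 12 genes, *lin-42*, a period-like gene that times the molts, had effects of -0.10, 1.69, -1.22 and -0.72 in exposures 1 to 4. *dpy-8* and *dpy-9*, chosen after their values were seen, had -0.44, 3.49, -1.27 and -1.62 and -1.01, 2.76, -1.73 and -1.64.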

How the results depend on the processing

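Where a change of 1 or more on the log2 scale was also required, the counts were 1140 genes that rose, 531 that fell and 1459 that differed between exposures, and a core defined by an effect of at least 1 in each exposure, with no condition on overlap, held 155 rises and 49 falls. With exposures as replicates 1006 rose and 269 fell. With every gene of at least 1 count tested, the core fall held 403 genes, and with at least 350 counts in every library (6461 genes tested) 1783 rose, 2008 fell, the core held 101 and 21, and 3958 differed between exposures. Without exposure 2, 3125 genes differed, without exposure 3, 5153 differed and the core rise held 1265 genes, and without exposure 4 the core fall held 462. *dpy-5* turned, at -0.73 without exposure 2. Leaving out 1 library at a time gave 3316 to 3501 rises, 3623 to 4316 falls, 542 to 836 core rises, 222 to 284 core falls and 7472 to 9289 differences. DESeq2, voom and other scalings kept each of the 5 counts within 1.5 times, and the median of all genes stayed between -0.057 and -0.034. *nhr-57* and *rhy-1*, not called here, were called by DESeq2 (adjusted p = 0.0359 and 0.0283) and voom. Of the named genes that rose or fell, 161 kept the call in every setting tried except exposures as replicates, and 5 lost it without some library, *ife-3*, *nlp-27*, *rme-2*, *col-36* and *rpt-1*. None of these 5 was called with exposures as replicates either (adjusted p = 0.491, 0.334, 0.342, 0.305 and 0.454). The deviations of same-numbered hypoxia and normoxia libraries from their group means correlated at -0.31 to 0.30 within exposures. With 3 libraries per group these values cannot settle whether the numbers paired the samples. With the replicate block 3087 genes rose and 3274 fell. The promoter motif comparison was not run. Low counts limit the fold changes of genes near 1 CPM.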

Other observations

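Some smaller gene families also held several core genes, and some of their members belong to lists above as well. The families were chosen after their values were seen, so their counts are given as values without a test. Of 6 tested collagens of the annular furrows, the circumferential grooves of the cuticle, 4 were core falls: *dpy-10* (-1.90), *dpy-3* (-1.85), *dpy-2* (-1.75) and *dpy-7* (-1.72). The effects of these 4 were negative in exposure 2 as well, and *dpy-10* had -1.90, -1.88, -2.67 and -1.19 in exposures 1 to 4. The other furrow collagens, *dpy-8* (-0.23) and *dpy-9* (-0.62), were not called for the common effect and rose in exposure 2, as given above. Lipocalin-related and other proteins of the apical matrix that precedes the cuticle had similar values, with 4 of 6 *lpr* genes, both *noah* genes and *fbn-1*, a fibrillin-like gene, in the core fall. *lpr-4* had between 0.622 and 18.9 CPM in the hypoxia libraries (median 10.8), against 20.4 to 52.7 CPM in the normoxia libraries (median 38.5). *noah-1* had a common effect of -1.72 (SE 0.21, adjusted p = 4.84e-07) and *fbn-1* one of -1.44 (SE 0.21, adjusted p = 5.8e-06). With exposures as replicates *fbn-1* was not called (adjusted p = 0.0557).

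Most genes of hydrogen sulfide and cysteine metabolism, some of them also in the HIF-1 list, rose. Of 16 tested genes 11 rose and 2 fell, and 7 were core rises, with a median of 0.88. *cbs-1*, which codes for cystathionine beta-synthase, had between 62.2 and 161 CPM in the hypoxia libraries (median 119.6), against 29.3 to 39.1 CPM in the normoxia libraries (median 34.6). The conditions did not overlap, and the effect was 1.68 (SE 0.12, adjusted p = 3.02e-10), beside 1.97 for *cbs-2* and 1.98 for *cysl-4*. Of 12 genes for peroxisome assembly and the peroxisomal protease 9 rose and 0 fell, by edgeR. *lonp-2*, the protease gene, had between 33.3 and 163 CPM in the hypoxia libraries, against 14.2 to 41.7 CPM in the normoxia libraries, with an effect of 1.83 (SE 0.20, adjusted p = 1.29e-07), and the import receptor gene *prx-5* had 1.21 and *prx-11* 1.55. Of 19 *skr* genes, whose products are subunits of ubiquitin ligases, 13 fell and 1 rose, and of 8 *sdz* genes, named as targets of the embryonic factor SKN-1, 7 fell and 1 rose, with *sdz-30* at -2.36 (SE 0.21, adjusted p = 7.88e-09).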
